A study of Rattus norvegicus with 9 samples.

Results

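The major histocompatibility complex (MHC) of the rat, called RT1, and the genes that load its molecules were read in RNA-seq values of the mast cell model RBL-2H3, a basophilic leukemia cell line of the rat. All genes with a value whose symbol starts with RT1- were taken, together with B2m, Tap1, Tap2, Tapbp, Cd74, Ciita, Nlrc5 and Erap1. This gave 38 genes of the 18006 with values, of which 30 were RT1- genes and 8 were accessory genes. The RT1- genes were split by symbol into 24 of class I and 6 of class II, the latter being RT1-Da, RT1-DMa, RT1-DMb, RT1-DOa, RT1-DOb and RT1-Ha. A further 10 RT1- symbols were listed without a value in any sample, 6 of class I (RT1-CE6, RT1-M1-4, RT1-M1-5, RT1-M2, RT1-T18 and RT1-T24-2) and 4 of class II (RT1-Ba, RT1-Bb, RT1-Db1 and RT1-Db2).

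There were 9 samples, 3 each of the groups Ctrl, IgE/DNP (DNP) and PF. DNP cells were kept 12 h with anti-DNP IgE at 50 ng/mL and then received DNP-HSA at 100 ng/mL, the antigen that crosslinks the IgE, for 4 h. PF cells received the same IgE and antigen after 1 h with PF, an agent that the labels do not spell out; 1 label field gives them 4, 5 and 6 h of antigen and another gives 4 h. Ctrl cells are called untreated in 1 field, whereas the protocol field gives IgE and antigen to all 9 samples. Egr1, an immediate early gene of the antigen response, measured 3.65 ± 0.329 FPKM in Ctrl, 169 ± 9.59 in DNP and 226 ± 10.7 in PF (SD, n = 3), so the Ctrl samples stood apart from the other 6 as their group label says. The samples are replicates of a single cell line, and nothing in the labels says whether they came from separate cultures, so p-values measure the spread between these samples only.

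The labels call the cells blood corpuscles of peripheral blood. Of 8 mast cell or basophil markers, all 8 had means above 1 FPKM in every group, and their sum ranged from 5111 to 5505 FPKM. Srgn was the largest part of it, averaging 2780 FPKM in Ctrl. In DNP vs Ctrl 1 of these markers was called higher and 4 lower, against 14.7% and 14.4% of all genes. The counts were 2 and 2 in PF vs DNP (18.1% and 30.7%) and 3 and 3 in PF vs Ctrl (23.1% and 34.6%). B cell markers, 3 of 5 of which had values, summed to 0.36 to 1.15 FPKM. Macrophage or dendritic cell markers (5 of 8 with values) summed to 61.8 to 67.5 in Ctrl, 65.1 to 67.0 in DNP and 56.3 to 57.5 in PF, nearly all of it Itgax at 55.4 to 65.5, while Csf1r reached 0.44, C1qa 0.07 and Adgre1 0.06 at most. Cd68 averaged 1.57 ± 0.0737 FPKM in Ctrl, 1.19 ± 0.233 in DNP and 0.96 ± 0.385 in PF and was called lower in PF vs Ctrl (-0.41, adjusted p = 0.0358). T or NK cell markers summed to 7.79 to 11.02, most of it Cd3e, and the 4 fibroblast or epithelial markers to at most 0.67. Cd3e was called higher in PF vs Ctrl (0.25, adjusted p = 0.0459), though the groups overlapped. Itgax was lower in PF than in DNP (-0.21, adjusted p = 0.000678) and Ctrl (-0.17, adjusted p = 0.00907). The part of these markers in the results was not tested. The sum of deposited values ran from 573023 to 630069 FPKM per sample, and the 3 PF samples, at 610206 to 630069, lay above the other 6; the PF comparisons are therefore also given under 2 other scalings.

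MHC class I molecules are carried by nearly all nucleated cells and show peptides cut in the cytosol to CD8 T cells. Their heavy chain pairs with B2m, the peptide comes through the Tap1/Tap2 transporter, Tapbp (tapasin) holds the empty molecule at that transporter, Erap1 trims peptides in the endoplasmic reticulum, and Nlrc5 is the transactivator of class I genes. Class II molecules belong to professional antigen-presenting cells and show endosomal peptides to CD4 T cells; RT1-B and RT1-D are the classical pairs, Cd74 is the invariant chain that guides them, the RT1-DM pair swaps the first peptide for others, RT1-DO restrains DM, and Ciita is the transactivator on which the class II genes depend.

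Because class I and class II genes are read through conserved promoter elements, the bases just upstream of the gene starts are shown for the most abundant class I genes (RT1-CE5, RT1-A2), for RT1-CE4 and RT1-S3, for B2m, for the expressed class II gene RT1-DMa, and for 3 classical class II genes, RT1-Da (listed at 0 in 8 of 9 samples), RT1-Ba and RT1-Bb (without a value). The sequences are from RefSeq (build GRCr8, which is not the build rn6 of the deposited values), 200 bases each, 5′ to 3′ on the strand of the gene, ending at the base before its start. Capitals mark CCAAT (or ATTGG on the other strand), the core AANNGAAA (or TTTCNNTT) that interferon regulatory factors (IRFs) bind, and the NF-κB core GGGANTCCC, which reads the same on both strands.
RT1-A2 promoter, chr20:4872671-4872870, plus strand: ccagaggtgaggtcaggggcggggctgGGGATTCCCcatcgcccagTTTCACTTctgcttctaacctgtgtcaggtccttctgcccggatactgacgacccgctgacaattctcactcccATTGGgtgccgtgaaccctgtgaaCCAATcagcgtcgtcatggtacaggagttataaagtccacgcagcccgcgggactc
RT1-CE5 promoter, chr20:3484091-3484290, minus strand: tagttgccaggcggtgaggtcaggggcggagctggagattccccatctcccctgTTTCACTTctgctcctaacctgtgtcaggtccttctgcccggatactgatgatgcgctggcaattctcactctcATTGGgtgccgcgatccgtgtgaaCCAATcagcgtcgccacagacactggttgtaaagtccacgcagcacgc
RT1-CE4 promoter, chr20:3509157-3509356, minus strand: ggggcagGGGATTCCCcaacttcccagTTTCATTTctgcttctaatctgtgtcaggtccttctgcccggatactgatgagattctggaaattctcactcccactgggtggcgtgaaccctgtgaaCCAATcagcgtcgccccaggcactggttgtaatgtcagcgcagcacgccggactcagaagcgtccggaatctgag
RT1-S3 promoter, chr20:2675328-2675527, plus strand: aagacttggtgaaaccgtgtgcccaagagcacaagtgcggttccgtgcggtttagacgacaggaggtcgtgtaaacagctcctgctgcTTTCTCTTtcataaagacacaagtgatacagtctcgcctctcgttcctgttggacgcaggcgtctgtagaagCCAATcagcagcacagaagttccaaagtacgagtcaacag
B2m promoter, chr3:129549130-129549329, plus strand: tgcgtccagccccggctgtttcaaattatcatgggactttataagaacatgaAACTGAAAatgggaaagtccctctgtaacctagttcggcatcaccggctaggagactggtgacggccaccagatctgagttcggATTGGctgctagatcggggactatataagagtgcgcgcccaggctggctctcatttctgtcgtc
RT1-DMa promoter, chr20:4712336-4712535, minus strand: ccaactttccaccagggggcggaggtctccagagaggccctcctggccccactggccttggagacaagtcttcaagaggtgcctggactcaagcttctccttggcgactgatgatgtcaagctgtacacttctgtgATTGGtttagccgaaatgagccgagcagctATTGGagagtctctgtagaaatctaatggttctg
RT1-Da promoter, chr20:4515215-4515414, plus strand: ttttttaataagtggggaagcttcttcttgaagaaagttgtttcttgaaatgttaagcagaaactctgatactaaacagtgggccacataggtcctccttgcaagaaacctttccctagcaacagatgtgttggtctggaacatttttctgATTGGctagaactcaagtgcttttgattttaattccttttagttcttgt
RT1-Ba promoter, chr20:4576857-4577056, plus strand: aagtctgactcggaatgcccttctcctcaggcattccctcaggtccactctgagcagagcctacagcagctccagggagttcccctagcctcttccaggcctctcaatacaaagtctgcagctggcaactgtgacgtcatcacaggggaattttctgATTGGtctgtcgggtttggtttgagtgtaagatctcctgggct
RT1-Bb promoter, chr20:4604119-4604318, minus strand: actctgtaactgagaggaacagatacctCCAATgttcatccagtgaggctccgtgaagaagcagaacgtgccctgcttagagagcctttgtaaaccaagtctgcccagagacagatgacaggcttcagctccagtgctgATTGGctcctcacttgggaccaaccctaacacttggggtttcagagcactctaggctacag

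Of the 48 symbols, 40 had a promoter in the RefSeq table, and 250 bases upstream of each start were searched on both strands. CCAAT was found in 9 of 9 class II promoters and 16 of 26 class I promoters (61.5%), against 34% of all 33469 promoters. The IRF core was found in 17 of 26 class I promoters (65.4%) and in all 5 accessory promoters (B2m, Tap1, Tap2, Tapbp and Cd74), but in 1 of 9 of class II, RT1-DOa, against 23.3% of all promoters. The NF-κB core was found in 185 promoters of the whole table (0.553%), and 5 of these belonged to class I genes: RT1-A1, RT1-A2, RT1-CE4, RT1-CE10 and RT1-CE13. In these 5 it started 19 to 20 bases upstream of the IRF core. The forms of the IRF and NF-κB cores were settled after matches in these promoters had been seen, the first so that it took in the element of B2m, so the shares are descriptions only. Genes of 1 family can share promoter sequence by descent, so the promoters are not taken as independent cases, and a match is a description of letters. No motif overlapped another in the printed sequences.

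In the order of GRCr8, all 30 RT1- genes lie on chromosome 20 with Tap1, Tap2 and Tapbp. The CE genes come before the class II block, in which Tap2 and Tap1 sit between RT1-DOb and RT1-DMb, and RT1-A2, RT1-A1 and Tapbp follow it. RT1-CE5, RT1-CE4 and RT1-CE7 overlap each other there, as do RT1-S2 with RT1-O1 and RT1-T24-4 with RT1-T24-3. Values of these genes, and of the near-identical class I copies in general, depend on how the authors' software divided shared reads among them and are uncertain gene by gene.

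Class I transcripts were abundant, and among the class II genes with a value transcripts were almost confined to the DM pair. Symbols without a value, among them RT1-Ba, RT1-Bb, RT1-Db1 and RT1-Db2, do not enter the sums. Summed over genes, class I reached 449 to 513 FPKM per sample and class II 40.1 to 49.0 FPKM, so that class I exceeded class II 9.83 to 11.2 times. RT1-DMa and RT1-DMb made up 98.5 to 99.5% of the class II sum, and the other 4 class II genes together came to 0.21 to 0.69 FPKM. B2m ranged from 409 to 471 FPKM, and the class I sum was 1.003 to 1.117 times B2m. The column headings name no unit; the values were read as FPKM, a level per length of transcript, and only on that reading can sums and genes be set against each other.

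**Figure D1:**
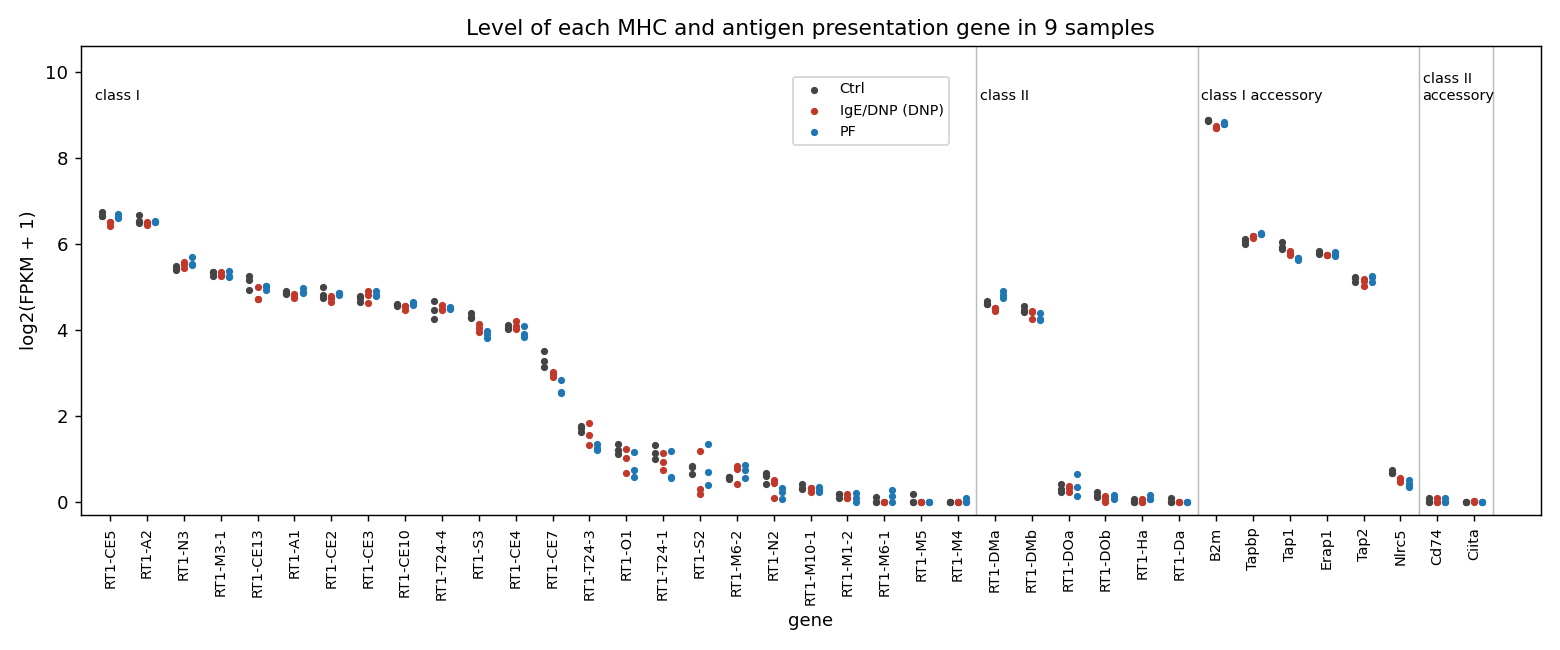
Level of each of the 38 MHC and antigen presentation genes in log2(FPKM + 1), grouped by class and ordered by mean, with 1 point per sample (3 Ctrl, 3 DNP, 3 PF). Of the class II genes only RT1-DMa and RT1-DMb lie above 4 on this scale, beside 12 class I genes with means above 15 FPKM, and Cd74 and Ciita lie at the floor.

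Among class I genes, RT1-CE5 and RT1-A2 led. RT1-CE5 measured 99.3, 106 and 98.7 FPKM in Ctrl, 84.7, 89.5 and 89.2 in DNP, and 97.9, 102 and 95.8 in PF. RT1-A2, of the classical RT1-A locus, measured 88.5, 100.2 and 91.0 FPKM in Ctrl, 88.4, 89.5 and 85.2 in DNP, and 91.3, 90.1 and 89.4 in PF. Together they held 38.2 to 40.4% of the class I sum in each sample. The values of RT1-CE5 and RT1-A2 overlapped, so their order is not settled. Next came RT1-N3 (41.2 to 50.8 FPKM over the 9 samples) and RT1-M3-1 (36.2 to 40.6), a relative of the M3 molecules that present formylated peptides. These 2 overlapped neither RT1-A2 nor each other. RT1-CE13 (25.3 to 37.1), RT1-A1 (25.9 to 30.3), RT1-CE2 (24.2 to 30.7), RT1-CE3 (23.6 to 29.0), RT1-CE10 (20.9 to 23.8) and RT1-T24-4 (18.1 to 24.3) formed a run in which each overlapped its neighbours. RT1-S3 (12.9 to 20.1), RT1-CE4 (13.2 to 17.4) and RT1-CE7 (4.75 to 10.4) followed. RT1-T24-3 (1.29 to 2.54), RT1-O1 (0.49 to 1.54) and RT1-T24-1 (0.47 to 1.48) were close to 1 FPKM, and the remaining 8 class I genes did not exceed 1.52 in any sample. The IRF core stood in 13 of 15 promoters of the class I genes named here and in 4 of 11 of those below 1 FPKM or without a value. The corresponding numbers for CCAAT were 12 of 15 and 4 of 11.

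The accessory genes of class I were expressed with the exception of Nlrc5. Tapbp ranged from 62.3 to 75.2 FPKM, Tap1 from 47.9 to 64.6, Erap1 from 51.5 to 55.8 and Tap2 from 31.2 to 36.9. Nlrc5 measured 0.68, 0.58 and 0.59 FPKM in Ctrl, 0.47, 0.45 and 0.38 in DNP, and 0.26, 0.32 and 0.43 in PF, below the filter on low values, so it was not tested.

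The class II genes fell into 2 levels. RT1-DMa measured 23.3, 24.5 and 23.4 FPKM in Ctrl, 21.6, 21.9 and 20.7 in DNP, and 27.1, 28.7 and 25.6 in PF. RT1-DMb measured 20.1, 22.6 and 20.8 FPKM in Ctrl, 20.2, 18.0 and 20.8 in DNP, and 17.7, 19.95 and 18.1 in PF. These levels are of the order of RT1-CE10 and RT1-T24-4 in class I. RT1-DOa reached 0.57 FPKM at most, RT1-DOb 0.16 and RT1-Ha 0.12, and RT1-Da was listed at 0 in 8 of 9 samples. Cd74 was listed at 0 in 6 samples and at 0.06 FPKM in the other 3, and Ciita at 0 in 7 samples and at 0.01 in the other 2. The transactivator of class II, the invariant chain and RT1-Da, the 1 classical gene with values, were at or near 0 in every group; the other 4 classical genes had no value, which is not a measured 0. The DM pair and, at 5.55 to 7.49 FPKM in Ctrl and DNP, the promoter-binding factor Rfx5 were above that level. CCAAT stood in the printed promoters of RT1-DMa, RT1-Da, RT1-Ba and RT1-Bb alike.

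Over the 9 samples the levels of the more abundant genes varied little. For the 19 MHC and antigen presentation genes with a mean of at least 10 FPKM, the coefficient of variation ran from 2.92% (Erap1) to 15.1% (RT1-S3), with a median of 6.80%. All 6013 genes from 10 FPKM up to the level of B2m had a median of 9.06%. RT1-CE7, at a lower level, varied by 25.7%, and RT1-T24-3, RT1-O1 and RT1-T24-1, close to 1 FPKM, by 24.6%, 36.0% and 37.2%.

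The first comparison set DNP against Ctrl. If Ctrl cells were untreated, as 1 label field has it, effects of IgE and of antigen cannot be told apart here. By limma, 7 members fell and 0 rose among the 23 that passed the filter of 1 FPKM in 3 of the 6 samples. The 7 were 4 class I genes, RT1-CE5, RT1-CE13, RT1-S3 and RT1-CE7, the light chain gene B2m, the transporter subunit gene Tap1, and RT1-DMa of class II. Across all 10392 genes tested, 14.7% were called higher and 14.4% lower, 29.2% in all (adjusted p of at most 0.05). Of these members 30.4% were lower and none higher, so the share called in all was near that of all genes, with every call downward. By an unadjusted p of at most 0.05, 1 member was higher, Tapbp. In bulk RNA, fewer cells with a transcript and less transcript per cell cannot be told apart.

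RT1-CE5 averaged 101 ± 3.79 FPKM in Ctrl and 87.8 ± 2.68 in DNP (SD, n = 3), a difference of -0.20 in log2(FPKM + 1) (standard error 0.0396, adjusted p = 0.00688). All 3 DNP samples lay below all 3 Ctrl samples, as they did for 15.5% of the genes with a value above 0. B2m measured 471, 463 and 467 FPKM in Ctrl and 429, 415 and 409 in DNP. The groups did not overlap, and the log2 difference was -0.16 (standard error 0.0311, adjusted p = 0.00671). RT1-S3 measured 18.6, 20.1 and 18.4 FPKM in Ctrl and 15.6, 14.4 and 16.4 in DNP. It fell by 0.28 on the log2 scale (adjusted p = 0.00904), again without overlap. RT1-CE7 measured 7.82, 10.4 and 8.59 FPKM in Ctrl and 7.03, 6.49 and 6.81 in DNP, a decrease of -0.35 (adjusted p = 0.0259) without overlap. RT1-CE13 measured 34.9, 37.1 and 29.2 FPKM in Ctrl and 25.4, 25.3 and 30.6 in DNP. Here the groups overlapped, and the adjusted p of 0.0499 lay just inside the threshold. Of these class I genes, the printed promoters of RT1-CE5 and RT1-S3 hold the IRF core and CCAAT without the NF-κB core, and RT1-CE13 holds all 3 motifs. RT1-CE3, RT1-M3-1, RT1-N3, RT1-T24-1 and RT1-T24-3 hold the IRF core and CCAAT without the NF-κB core as well and were not called here. RT1-A1, RT1-A2, RT1-CE4 and RT1-CE10, not called either, hold all 3 motifs. RT1-CE5 reads gagattccc where RT1-A2 reads GGGATTCCC, a difference of a single letter. For RT1-CE7 RefSeq gave no promoter.

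Tap1 measured 59.5, 64.6 and 57.7 FPKM in Ctrl and 55.9, 53.0 and 52.1 in DNP (log2 difference -0.17, adjusted p = 0.0319), without overlap. Its partner Tap2 averaged 35.4 ± 1.57 FPKM and 33.5 ± 2.07, a difference of -0.08 (95% interval -0.20 to 0.05, adjusted p = 0.310). Tapbp averaged 65.5 ± 2.94 in Ctrl and 70.6 ± 1.69 in DNP, a log2 difference of 0.11 that did not pass (adjusted p = 0.0883) although the groups did not overlap. Erap1 differed by -0.07 (interval -0.14 to 0.01, adjusted p = 0.160). RT1-DMa fell by 0.14 on the log2 scale, from 23.7 ± 0.656 to 21.4 ± 0.597 FPKM (adjusted p = 0.0391), and RT1-DMb differed by -0.10 (interval -0.25 to 0.05, adjusted p = 0.276). The most abundant classical gene, RT1-A2, differed by -0.09 (interval -0.20 to 0.03, adjusted p = 0.226). The changes were small: none of the 23 reached a log2 difference of 0.5 in either direction with a call, which 3.71% of all genes did. The calls of RT1-CE5, RT1-S3 and B2m held under each of 13 other settings with the same threshold. That of RT1-DMa was kept in 3 of 13, being lost on leaving out any 1 of the 6 samples (adjusted p = 0.0576 to 0.129) and with equal sums (0.0723). Tap1 was lost without Ctrl 1, Ctrl 2, DNP 2 or DNP 3 (up to 0.1004), RT1-CE7 without Ctrl 2 or any DNP sample (up to 0.0788), and RT1-CE13, kept in 3 of 13, without Ctrl 1, Ctrl 2, DNP 1 or DNP 2 (up to 0.149), with median ratios (0.0525) and with equal sums (0.0529).

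**Figure D2:**
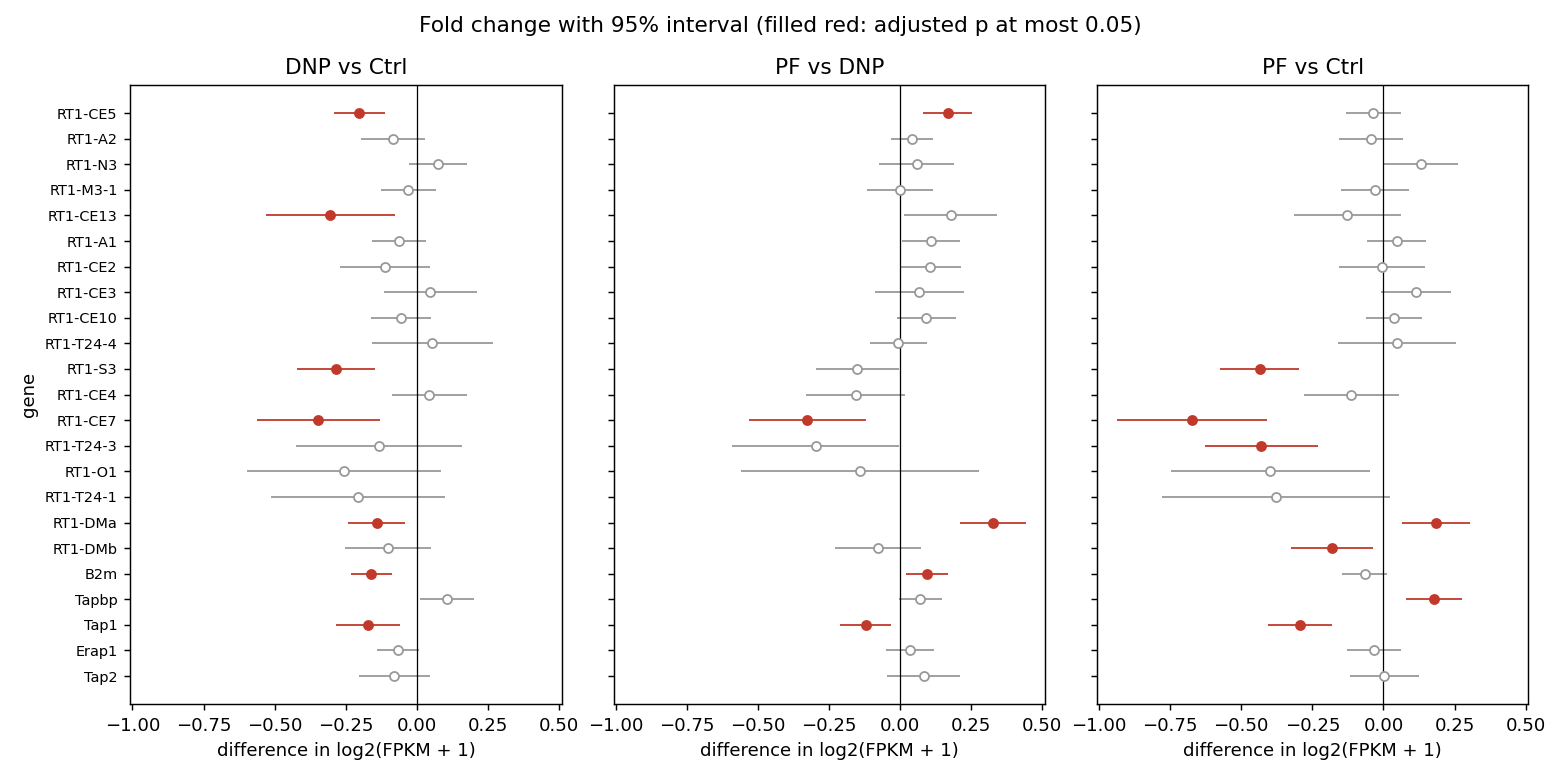
Difference in log2(FPKM + 1) with its 95% interval for each member that passed the filter, in the 3 comparisons; filled red points have an adjusted p of at most 0.05. In DNP vs Ctrl the 7 red points lie left of 0, from -0.35 (RT1-CE7) to -0.14 (RT1-DMa), and RT1-DMa and RT1-DMb lie on opposite sides of 0 in PF vs Ctrl.

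PF against DNP asked what the pretreatment changed in stimulated cells. It shares its DNP samples with the comparison above, so a low value in DNP enters both with opposite sign. Of 22 members tested, 3 were higher (RT1-CE5, B2m and RT1-DMa) and 2 lower (RT1-CE7 and Tap1), against 18.1% higher and 30.7% lower (48.8% in all) among 10329 genes. RT1-DMa, the alpha chain gene of the class II peptide exchanger, rose from 21.4 ± 0.597 to 27.1 ± 1.55 FPKM, a log2 difference of 0.33 (standard error 0.0507, adjusted p = 0.000807), and all 3 PF samples lay above all 3 DNP samples, as for 14.4% of genes (24.5% lay below). RT1-DMb, the beta chain gene, averaged 19.7 ± 1.49 and 18.6 ± 1.21 FPKM, a difference of -0.08 (interval -0.23 to 0.07, adjusted p = 0.372). RT1-CE5 rose by 0.17 to 98.7 ± 3.28 FPKM (adjusted p = 0.00618) and B2m by 0.09 to 446 ± 10.35 FPKM (adjusted p = 0.0404). RT1-CE7 measured 4.75, 6.11 and 4.83 FPKM in PF, below all 3 DNP samples, a difference of -0.33 (adjusted p = 0.0157). Tap1 measured 50.2, 47.9 and 49.6 FPKM in PF, also below all DNP samples (difference -0.12, adjusted p = 0.0314).

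The PF comparisons moved with the scaling, in opposite directions under the 2 alternatives. With scaling by median ratios 10 members were higher and 1 lower than in DNP, and with every sample scaled to the mean sum 1 was higher and 6 were lower; the share of higher genes among all called genes was 37.1% as deposited, 51.5% with median ratios and 16.8% with equal sums. RT1-DMa was called higher and RT1-CE7 lower than in DNP under all 3 scalings. B2m went from 0.09 to -0.0053 with equal sums (adjusted p = 0.916), RT1-CE5 to 0.07 (adjusted p = 0.149), and Tap1 to -0.06 with median ratios (adjusted p = 0.232). On leaving out 1 sample, RT1-CE7 was lost without DNP 1, PF 1 or PF 3 (adjusted p up to 0.0575), B2m without DNP 2, DNP 3 or PF 1 (up to 0.140), and Tap1 without DNP 1, DNP 2 or PF 2 (up to 0.120), while RT1-DMa and RT1-CE5 held.

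PF against Ctrl compared pretreated, stimulated cells with controls, from the samples of the first 2 comparisons. Of 23 members tested, 2 were higher (Tapbp and RT1-DMa) and 5 lower (RT1-S3, RT1-CE7, RT1-T24-3, Tap1 and RT1-DMb), against 23.1% higher and 34.6% lower among 10361 genes. RT1-CE7 fell from 8.95 ± 1.34 to 5.23 ± 0.763 FPKM, a log2 difference of -0.67 (standard error 0.116, adjusted p = 0.00126), the only member called with a size of 0.5 or more in any of the 3 comparisons, where 17.9% of genes were in PF vs Ctrl. RT1-S3 measured 12.9, 13.9 and 14.7 FPKM in PF against 19.1 ± 0.889 in Ctrl (difference -0.43, adjusted p = 0.000392). RT1-T24-3, near the filter, measured 1.29, 1.39 and 1.55 FPKM in PF against 2.38, 2.26 and 2.09 in Ctrl (difference -0.43, adjusted p = 0.00293). Tap1 fell by 0.29 on the log2 scale, to 49.2 ± 1.23 FPKM (adjusted p = 0.00110), while Tap2 differed by 0.0032 (interval -0.12 to 0.13, adjusted p = 0.966). Tapbp was higher by 0.18 at 74.2 ± 0.942 FPKM (adjusted p = 0.00671).

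RT1-DMa and RT1-DMb parted in this comparison, at 0.18 (adjusted p = 0.0159) and -0.18 (adjusted p = 0.0376). B2m differed by -0.07 (interval -0.14 to 0.01, adjusted p = 0.129) and RT1-A2 by -0.04 (interval -0.16 to 0.07, adjusted p = 0.466). RT1-S3, RT1-CE7, RT1-T24-3 and Tap1 stayed lower under all 14 other settings with the same threshold. Of these genes only RT1-CE7 also kept its call with a log2 minimum of 0.5. Tapbp and RT1-DMa were not called with equal sums (adjusted p = 0.0725 and 0.0925), RT1-DMa was also lost without PF 2 (0.0557), and RT1-DMb was lost with median ratios (0.154) and without Ctrl 2, Ctrl 3, PF 1 or PF 3 (up to 0.125). With equal sums 9 members were lower, and the share of higher genes among all called was 40.0% as deposited, 51.1% with median ratios and 26.7% with equal sums.

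Ratios within a sample do not depend on any scaling between samples, and are given as a description, since the pairs were chosen after their values were seen. RT1-DMa over RT1-DMb was 1.16, 1.09 and 1.124 in Ctrl, 1.07, 1.22 and 0.998 in DNP, and 1.53, 1.44 and 1.41 in PF. The PF samples lay above the other 6, which overlapped. Tap1 over Tap2 was 1.77, 1.76 and 1.61 in Ctrl, 1.65, 1.501 and 1.67 in DNP, and 1.39, 1.30 and 1.49 in PF, with PF again apart from the rest, here at the low end. RT1-CE7 over the overlapping RT1-CE5 was 0.0882 ± 0.0101 in Ctrl, 0.0773 ± 0.00530 in DNP and 0.0529 ± 0.00601 in PF (SD, n = 3). RT1-S3 over RT1-A2 was 0.205 ± 0.00545, 0.177 ± 0.0159 and 0.153 ± 0.0112.

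**Figure D3:**
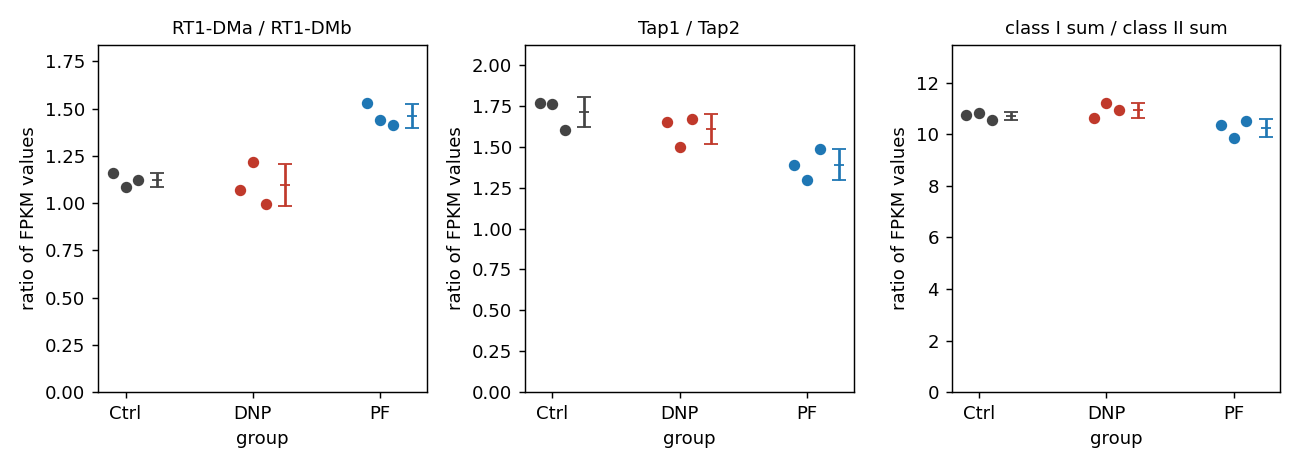
Ratios of FPKM values within each of the 9 samples, by group (points, 3 per group; the bar beside them is mean ± SD): RT1-DMa over RT1-DMb, Tap1 over Tap2, and the class I sum over the class II sum. The first ratio is 1.41 to 1.53 in PF and at most 1.22 elsewhere, and the third stays between 9.83 and 11.2.

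Class I and class II were set side by side by their medians, and the difference between them was not tested. The median log2 difference of the class I genes tested was -0.10 in DNP vs Ctrl, 0.04 in PF vs DNP and -0.04 in PF vs Ctrl (16, 15 and 16 genes). For class II it was -0.12, 0.12 and 0.0024, but this rests on RT1-DMa and RT1-DMb, the only 2 class II genes that passed the filter. In the PF comparisons it averages differences of opposite sign, and that of RT1-DMb in PF vs DNP was not called. All genes tested had medians of -0.01, -0.04 and -0.05. The class I median in PF vs DNP was 0.11 with median ratios and -0.06 with equal sums, and in PF vs Ctrl 0.03 and -0.12, so neither PF comparison gives class I a direction. The class I sum was 485 ± 24.6 FPKM in Ctrl, 452 ± 4.54 in DNP and 472 ± 9.17 in PF, and the class II sum 45.3 ± 1.90, 41.4 ± 1.16 and 46.2 ± 2.56 (SD, n = 3). Their ratio was 10.7 ± 0.146, 10.9 ± 0.297 and 10.2 ± 0.362. By locus, the CE genes together gave 235 ± 12.6 FPKM in Ctrl and 212 ± 7.19 in DNP, and RT1-A1 with RT1-A2 gave 121 ± 6.76 and 115 ± 2.97. The other class I genes gave 128 ± 6.00 and 126 ± 2.69.

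The wider pathway was read from a list of 47 further genes, 39 of which had values. In DNP vs Ctrl, 2 of the 28 tested were higher and 4 lower, against 14.7% and 14.4% of all genes. Creb1, a factor of the class II enhanceosome, rose from 12.9 ± 0.568 to 18.5 ± 1.22 FPKM (log2 difference 0.49, adjusted p = 0.000902), and Nfyb, a subunit of the CCAAT-binding factor, by 0.28 (adjusted p = 0.0388). Irf1, an interferon regulatory factor that drives class I and Tap1 genes, fell from 25.3 ± 2.17 to 18.3 ± 0.430 FPKM (difference -0.45, adjusted p = 0.00157). The others called lower were Rfxank, a subunit of the RFX complex (-0.27, adjusted p = 0.0285), Cd274, which encodes the inhibitory ligand PD-L1 (-0.23, adjusted p = 0.00353), and the endosomal protease gene Ctsd (-0.19, adjusted p = 0.00383). The immunoproteasome genes Psmb8, Psmb9 and Psmb10 did not pass, with differences of -0.04, -0.12 and -0.13 (adjusted p = 0.524, 0.0872 and 0.0579).

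In PF vs DNP, 13 of 29 were higher and 8 lower, against 18.1% and 30.7% of all genes; with median ratios the counts were 15 and 7. Rfx5, the subunit of RFX that gives the complex its name, measured 7.05, 7.49 and 7.39 FPKM in DNP and 1.55, 1.57 and 2.15 in PF, a difference of -1.60 (standard error 0.0953, adjusted p = 3.21e-06). In Ctrl it measured 5.55, 6.37 and 6.81 FPKM. Irf2, a relative of Irf1, fell from 9.98 ± 0.179 to 2.85 ± 0.198 FPKM (-1.51, adjusted p = 7.80e-07) and Cd274 from 121 ± 2.96 to 69.0 ± 2.07 FPKM (-0.81, adjusted p = 7.80e-07). Rfxap, the third RFX subunit, fell by 0.25 on the log2 scale (adjusted p = 0.00233), and Rfxank differed by 0.11 (interval -0.07 to 0.28, adjusted p = 0.271). Irf1 also fell, by 0.55 on the log2 scale (adjusted p = 3.79e-05), and Creb1, higher in DNP than in Ctrl, by 0.71 (adjusted p = 3.93e-05). The 3 largest increases were of Tapbpl, a peptide editor of class I (0.41, adjusted p = 0.00807), Psmb10 (0.35, adjusted p = 0.00507) and Ifi30, an endosomal thiol reductase (0.32, adjusted p = 0.00646). Psmb8 rose from 261 ± 7.39 to 308 ± 11.8 FPKM (0.24, adjusted p = 0.000864) and Psmb9 by 0.21 (adjusted p = 0.00439). With equal sums Psmb9 was no longer called (adjusted p = 0.0624) and the list held 8 higher and 8 lower, whereas Rfx5, Irf1, Irf2, Rfxap and Cd274 stayed lower and Psmb8, Psmb10, Tapbpl and Ifi30 higher under both scalings. Within the list, 6 of 11 regulators were lower and 1 higher, while of the 6 immunoproteasome and PA28 genes 5 were higher and 1, Psme3, was lower, to be read against 30.7% lower and 18.1% higher (48.8% in all) among all genes. Psme3 was not called with median ratios (adjusted p = 0.434).

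In PF vs Ctrl, 13 of 29 were higher and 8 lower, against 23.1% and 34.6% of all genes (57.7% called in all); with median ratios the counts were 15 and 7. The lowest were Irf2 (-1.48, adjusted p = 1.74e-06), Rfx5 (-1.40, adjusted p = 1.63e-05) and Cd274 (-1.03, adjusted p = 1.04e-06), and Creb1 was lower by a smaller amount (-0.22, adjusted p = 0.0157). The highest were Tapbpl, from 2.73 ± 0.399 to 4.35 ± 0.561 FPKM (0.52, adjusted p = 0.00346), Nfyb (0.38, adjusted p = 0.00714) and the chaperone gene Hspa5 (0.31, adjusted p = 0.000218). Psmb8 (0.20, adjusted p = 0.00551) and Psmb10 (0.22, adjusted p = 0.0349) were higher, and Psmb9 differed by 0.09 (interval 0.0049 to 0.18, adjusted p = 0.0670), which was called with median ratios (0.16, adjusted p = 0.00810). With equal sums Psmb10 was not called (adjusted p = 0.110), and the list held 6 higher and 10 lower. Rfxap (-0.11, interval -0.33 to 0.10, adjusted p = 0.340) and Rfxank (-0.16, interval -0.36 to 0.03, adjusted p = 0.130) were not called; with equal sums Rfxank was (adjusted p = 0.0283).

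**Figure D4:**
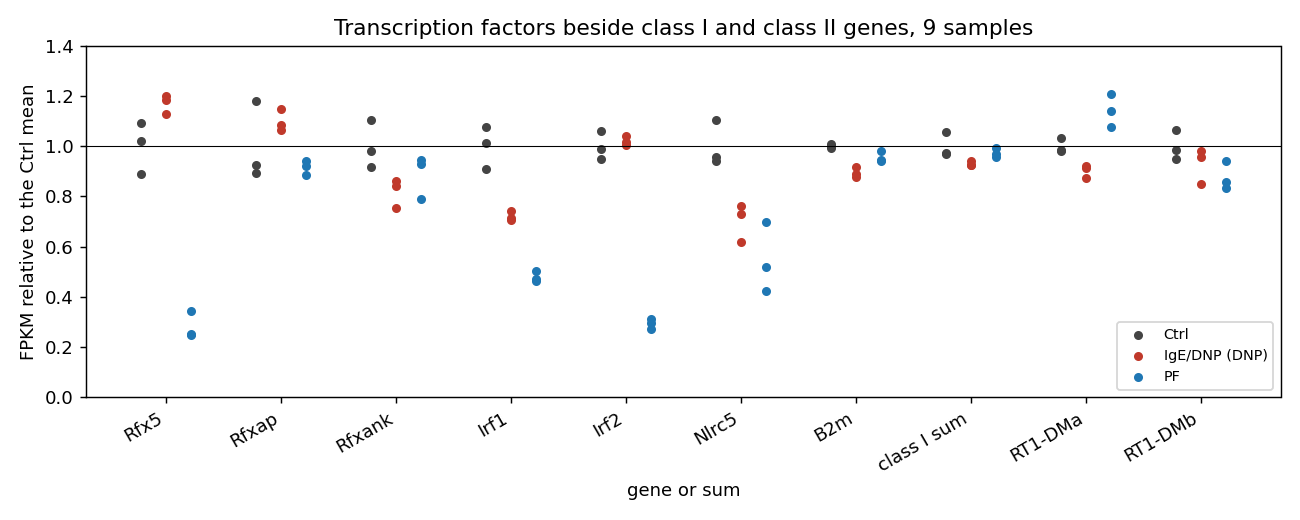
FPKM relative to the Ctrl mean for transcription factors of the MHC genes (Rfx5, Rfxap, Rfxank, Irf1, Irf2, Nlrc5) beside B2m, the class I sum, RT1-DMa and RT1-DMb, with 1 point per sample in 3 groups. In PF Rfx5 lies at 0.248 to 0.344 of Ctrl and Irf2 at 0.270 to 0.310, while the class I sum lies at 0.956 to 0.994.

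Set beside the MHC genes, the factors showed the wider span. In PF the class I sum stood at 0.956 to 0.994 of its Ctrl mean and B2m at 0.940 to 0.981, with Rfx5 at 0.248 to 0.344, Irf2 at 0.270 to 0.310 and Irf1 at 0.463 to 0.504 of theirs. RT1-DMa stood at 1.08 to 1.21 and RT1-DMb at 0.835 to 0.943 in the same PF samples. Nlrc5, singled out after its values were seen, stood at 0.616 to 0.762 in DNP and 0.422 to 0.697 in PF. Its Ctrl samples did not overlap those of DNP or PF, as held for 15.5% (DNP lower) and 26.7% (PF lower) of all genes with a value above 0. Whether the levels of these factors bear on the MHC genes was not tested.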

How the data were processed

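RNA-seq values of 9 RBL-2H3 samples (3 Ctrl, 3 DNP, 3 PF) were used as the authors deposited them, 1 value per gene and sample. Neither the column heading nor the study's methods name a unit. The values the authors deposited, which they made with RSEM, were read as FPKM (fragments scaled to transcript length and library size). They have decimals and sums that differ between samples. These properties do not exclude fractional counts, or TPM summed over only the genes with a value, so the unit is an assumption. Per the labels and the submitters' processing notes, reads were aligned with HISAT2 2.0.4 and Bowtie2 2.2.5 and quantified with RSEM 1.2.12 on rn6; the annotation is not given in the sources used here. Read depth is unknown, so no counting intervals are given.

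Groups came from the labels. Each comparison was fitted on its own 6 samples with limma 3.58.1 (R 4.3.3, eBayes with trend) on log2(FPKM + 1), over genes that reached 1 FPKM in 3 or more of them, and p-values were adjusted by Benjamini-Hochberg over all genes tested, with a threshold of 0.05. A fold change on this scale understates that of low genes. A two-sided exact permutation test of 3 against 3 samples cannot give a p below 0.1. Every member with a mean of at least 1 FPKM in a group was named, with the 3 highest and 3 lowest called genes of the wider list, Psmb8, Psmb9, Psmb10, Rfx5, Rfxap, Rfxank and Egr1; Irf1, Psme3 and the low members given with values were picked with their values already seen. The members and lists were chosen with earlier results of these data known. Alternatives were another pseudocount, no filter, all groups in the fit, a replicate block, 2 scalings, no trend, other thresholds and leaving out samples. The scripts were tested on simulated data. Gene names were matched to RefSeq (GRCr8), for 38 of 38 members; no coordinates of rn6 were used.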

Additional observations from a re-analysis of the deposited data

How the results depend on the processing

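Depth in reads is unknown, so precision rests on 3 samples a group, and each fit that left out 1 sample kept 2 in that group. Fits with only the 4 h PF sample have 1 sample in that group and take its spread from the other group, so a call lost there says little. In DNP vs Ctrl the 7 lower members became 3 with no filter, 4 without the trend, 3 at an adjusted p of 0.01, 0 with a log2 change of at least 0.5 as well, and 3 to 6 on leaving out 1 sample; the class II median became -0.056 with no filter. In PF vs DNP the 3 higher became 10 with median ratios, 1 with equal sums and 0 with the 0.5 minimum. The 2 lower became 1 with no filter, 1 with all 3 groups in the fit, 1 with median ratios, 6 with equal sums, 1 without the trend, 1 with only the 4 h PF sample, 0 at 0.01 and 0 with the 0.5 minimum, and 1 to 2 on leaving out 1 sample. The class I median of 0.04 became 0.11 with median ratios, -0.057 with equal sums and 0.023 with the 4 h PF sample, and 0.016 to 0.056 on leaving out 1 sample (lowest without PF 2); that of class II became 0.030 with equal sums. B2m reversed to -0.0053 with equal sums (adjusted p = 0.916). In PF vs Ctrl the 2 higher became 4 with median ratios, 0 with equal sums, 0 with the 4 h PF sample, 1 at 0.01, 0 with the 0.5 minimum, and 1 to 3 on leaving out 1 sample. The 5 lower became 9 with equal sums and 1 with the 0.5 minimum. The class I median became 0.027 with median ratios and -0.12 with equal sums, and that of class II -0.074 with equal sums. Apart from settings that only tighten a threshold or use fewer samples, the cause was not tested. Replicate numbers were shared between groups. The deviations of same-numbered samples from their group means correlated at -0.0822 to 0.189, and at 0.0830 to 0.189 in PF vs Ctrl. With so few samples these values cannot tell whether same-numbered samples share a culture or batch. With the replicate block 0 members were higher and 5 lower in DNP vs Ctrl, 2 and 2 in PF vs DNP, and 3 and 6 in PF vs Ctrl. Of 1054 recomputed values of named genes, 936 stayed on their side of the threshold, 90 lost a call, 27 gained one and 1 reversed. Among the 936, 41 values without a call changed sign. The largest of these was RT1-O1 in PF vs DNP (-0.14, and 0.19 with the 4 h PF sample).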
